A study of Mus musculus with 6 samples.

Results

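The genes described here are 38 genes of RNA sensing and interferon signalling, out of 21157 named genes measured on 6 expression arrays. They were chosen by symbol, from the receptors, adaptors, kinases and transcription factors of the pathway, with earlier results of these arrays known; no measured value enters the rule. All 38 were found, each with at least 1 transcript cluster (the array's unit of measurement, a set of probes along a gene). Irf1 and Socs3 had a second cluster each, and the one with the higher mean was used. The RNA came from B/CMBA.ov, a cell line made from the ovary of BALB/c mice. On 3 arrays the cells had been transfected with a miRIDIAN mimic of mmu-miR-15a-3p, and on 3 with a negative control mimic of the same kind. Both groups thus received synthetic RNA, at 20 nM with the lipid reagent RNAiMax, and RNA was taken 48 h later. Untransfected cells were not analysed here. Nothing in the labels ties the replicates to separate cultures, and the p-values therefore describe only array-to-array spread, part or all of which may be technical.

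Cells detect foreign RNA with receptors in the cytosol, such as RIG-I and MDA5, and in endosomes, such as Toll-like receptors. Adaptor proteins pass the signal to kinases that activate Irf transcription factors, and these switch on the gene of interferon beta. Secreted interferon binds its receptor, Janus kinases phosphorylate Stat factors, and a complex that holds Stat2 and Irf9 switches on many further genes, among them several of the sensors themselves. A microRNA guides the silencing machinery to messages that pair with its seed.

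The mimic is the 3′ strand of the miR-15a hairpin, and its seed differs from that of the better known 5′ strand. Both mature sequences are shown 5′ to 3′ from RefSeq (GRCm38.p6), with the seed, bases 2 to 8, in capitals, because the seed is what sets this mimic apart from the rest of the miR-15 family. The 3p strand lies at chr14:61632038-61632059 and the 5p strand at chr14:61632075-61632096, both on the minus strand.
mmu-miR-15a-3p: cAGGCCAUacugugcugccuca
mmu-miR-15a-5p: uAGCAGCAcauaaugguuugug

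Most RNA sensors and the transcription factors Irf7, Irf9 and Stat2 were lower in cells given the miR-15a-3p mimic. Tbk1, Ikbke, Traf3, the Janus kinases and the Socs inhibitors did not pass the test, and the rises were those of Tlr2, Irf1 and Ifngr2. Of the 38 members, 14 fell and 3 rose at a limma adjusted p under 0.05, and 21 did not pass. Among all genes tested 11.7% were called, 6.08% as risen and 5.64% as fallen, against 44.7% of the members, 7.89% as risen and 36.8% as fallen. Of the genes whose mean log2 value reached the median of all gene means (7.27), called bright from here on, 19.2% were called, 9.43% as risen and 9.79% as fallen, and 32 of the 38 members were bright. The median log2 fold change of the members was -0.13, and that of all genes was 0.01. With each array centred on its median, 986 genes rose and 1458 fell in place of 1286 and 1194, and 2 members rose and 15 fell. In 23 members (60.5%) all 3 mimic arrays lay above or all 3 below the control arrays, which was so for 29.6% of all genes.

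**Figure D1:**
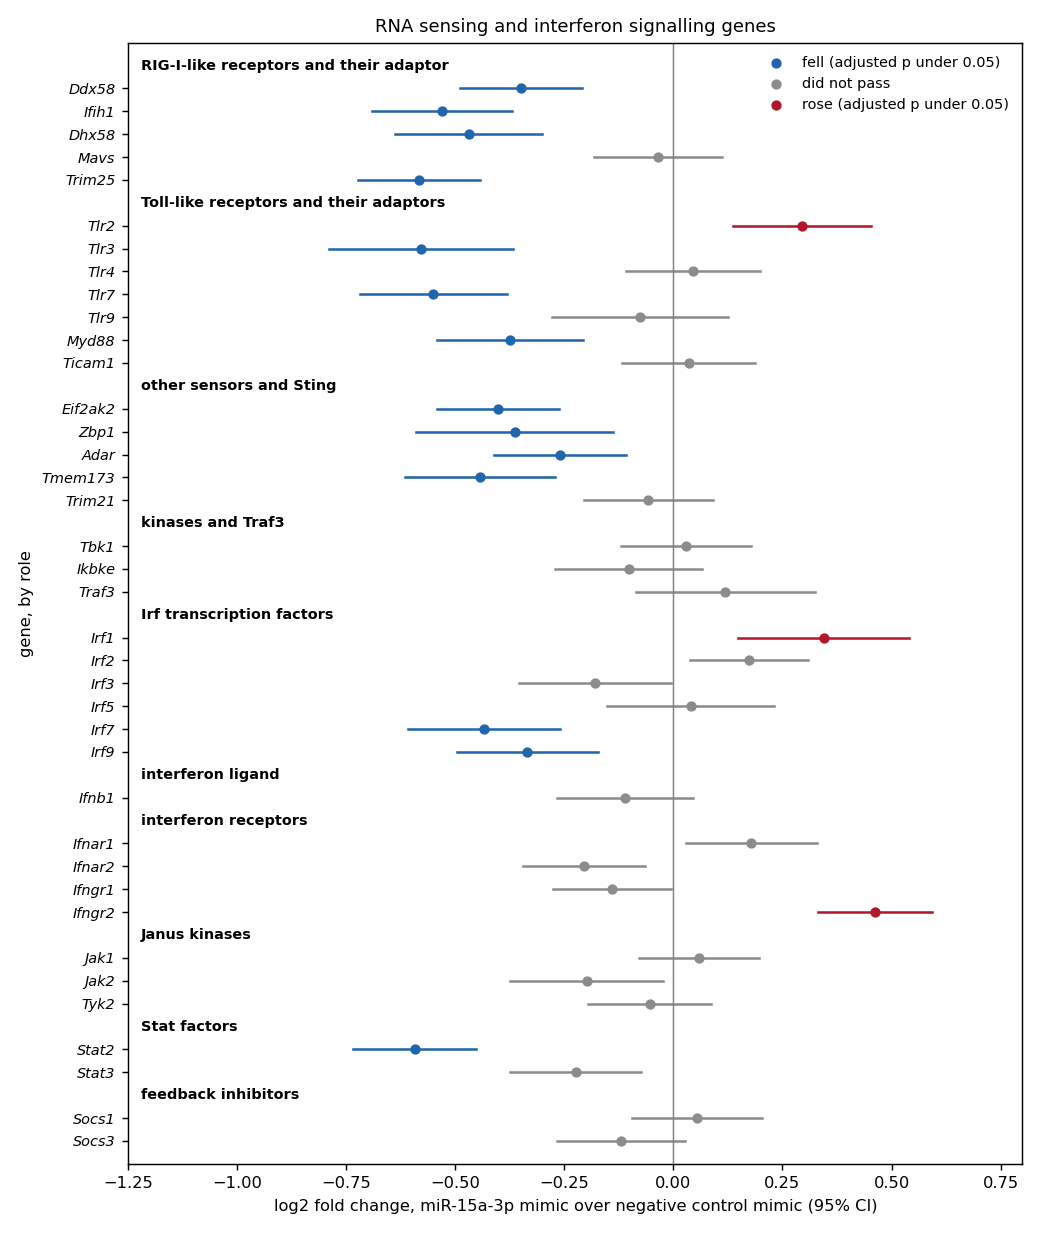
The horizontal axis is the log2 fold change of the miR-15a-3p mimic over the negative control mimic, and the vertical axis lists the 38 genes by role. Points are limma estimates from 3 arrays a group and bars are 95% confidence intervals. The 14 fallen genes (blue) are mainly sensors, Irf7, Irf9 and Stat2, and the 3 risen genes (red) are Tlr2, Irf1 and Ifngr2.

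The labelled cell type was checked against markers. All 9 mesothelial markers, such as Msln and Upk3b, and 8 of 10 fibroblast and stroma markers were bright. Of 6 epithelial markers 2 were bright, Cdh1, at a mean of 11.11, and Krt14. Of the granulosa and theca cell markers this was so for 1 of 9, Nr5a1, at a mean of 7.27, and Foxl2 and Cyp19a1, defining genes of granulosa cells, were not bright. Of 6 leukocyte markers 1 and of 11 macrophage and dendritic cell markers 2 were bright, and the leukocyte gene Ptprc and the macrophage gene Csf1r were not. The bright leukocyte marker, Cd53, fell with a log2 fold change of -0.42 (limma adjusted p = 0.0334), and 0 of the other 5 passed, while 1 macrophage marker, Fcgr1, rose (0.21; limma adjusted p = 0.0496). The mean log2 value of the leukocyte list was 6.20 to 6.30 on the mimic arrays and 6.24 to 6.30 on the control arrays, and that of the macrophage list 6.23 to 6.31 and 6.16 to 6.28. The mean of the mesothelial list was lower with the mimic, at 9.58 to 9.70 on the mimic arrays and 9.79 to 9.80 on the control arrays, but its markers did not move together. Of its markers 3 rose, among them Krt8 and Krt19 (log2 fold changes 0.69 and 0.63), and 4 fell, among them Lrrn4 and Krt7 (-0.83 and -0.75). The largest change was the fall of Upk3b (log2 fold change -1.40; limma adjusted p = 7.62e-06), and this 1 gene weighed most in the lower mean. Smaller gaps between the groups were seen for the fibroblast list, at 9.89 to 9.95 with the mimic and 9.97 to 10.02 with the control. The epithelial list lay at 7.55 to 7.60 with the mimic and 7.49 to 7.52 with the control. The part of these lists in the results below was not tested. In these arrays fewer cells of a type and less RNA per cell cannot be told apart. No detection call came with the values, so a dim gene cannot be set apart from background.

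Of the 5 genes of RIG-I-like signalling, the 3 receptors and the ubiquitin ligase gene fell, and the adaptor gene did not pass. Ddx58 (transcript cluster 10512067), which encodes RIG-I, the sensor of RNA with 5′ triphosphates, had log2 values of 10.10, 10.06 and 10.11 with the mimic, against 10.38, 10.50 and 10.44 with the control. Ifih1 (10483110), the gene of MDA5, the sensor of long double-stranded RNA, had 9.38, 9.29 and 9.29 with the mimic, against 9.73, 9.92 and 9.89 with the control. In both genes each mimic array was below each control array, and the drop was larger than the spread within either group. The log2 fold changes were -0.35 ± 0.0622 for Ddx58 and -0.53 ± 0.0715 for Ifih1 (SE, n = 3 arrays a group; limma adjusted p = 0.00615 and 0.00147). Dhx58 (10391207) encodes LGP2, a relative that lacks the signalling domains and modulates the other sensors. Its values were 5.54, 5.31 and 5.52 with the mimic, against 5.93, 5.93 and 5.92 with the control. It is a dim gene, brighter than only 20.9% of the genes tested, with a log2 fold change of -0.47 ± 0.0749 (SE; adjusted p = 0.0036 by limma).

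Trim25 (10380260), whose protein attaches ubiquitin in the activation of RIG-I, had the largest fall of this group. It had 8.62, 8.68 and 8.65 with the mimic, against 9.25, 9.28 and 9.17 with the control, a log2 fold change of -0.58 ± 0.0622 (SE; adjusted p = 0.000429 by limma). The groups were separated by several times the spread within each. Mavs (10476276), the mitochondrial adaptor on which RIG-I and MDA5 converge, had 9.37, 9.26 and 9.25 with the mimic and 9.36, 9.26 and 9.36 with the control. These ranges overlapped, and the 95% confidence interval of its log2 fold change ran from -0.18 to 0.11 (limma adjusted p = 0.816). An interval of this width leaves out a change as large as that measured for Ifih1 or Trim25.

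**Figure D2:**
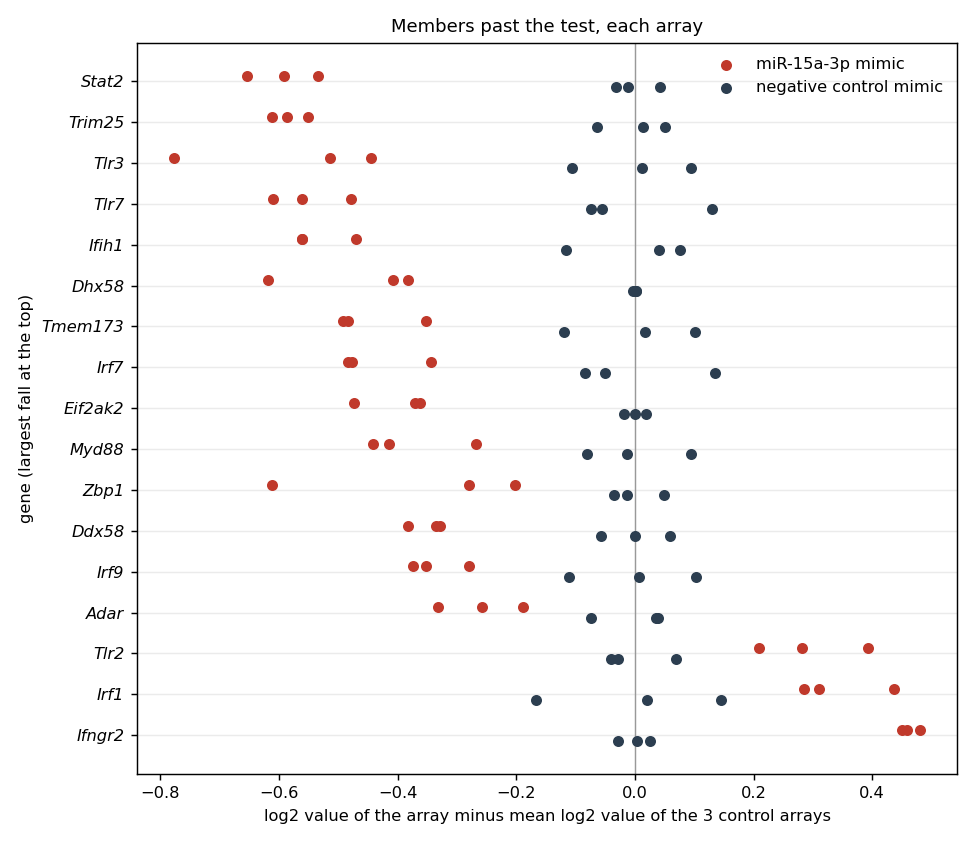
Each row is one of the 17 members past the test, and the horizontal axis is the log2 value of an array minus the mean of the 3 control arrays. Red points are the miR-15a-3p mimic arrays and dark points the negative control arrays, 3 each. In every row the 2 groups are apart, with the mimic lower for 14 genes and higher for Tlr2, Irf1 and Ifngr2.

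Of the Toll-like receptors of this set, Tlr3 and Tlr7, endosomal RNA sensors, fell and Tlr2, of the cell surface, rose. Off this list the surface receptor Tlr1 fell (log2 fold change -0.31; limma adjusted p = 0.0301), so surface receptors did not share a direction. Tlr6 did not pass (-0.05; limma adjusted p = 0.802). Tlr8, a further endosomal receptor, was dim, was read by 1 probe set and did not pass (0.01; limma adjusted p = 0.95). Tlr3 (10578493), which detects double-stranded RNA, had 7.98, 7.64 and 7.91 with the mimic, against 8.32, 8.52 and 8.43 with the control. Tlr7 (10607870), a sensor of single-stranded RNA, had 5.37, 5.24 and 5.29 with the mimic, against 5.80, 5.78 and 5.98 with the control. The groups did not overlap in either gene, and mimic replicate 2 was the lowest array in both. The log2 fold changes were -0.58 ± 0.0945 and -0.55 ± 0.0752 (SE; adjusted p = 0.00401 and 0.00161 by limma). Tlr7 was dim, brighter than only 19.2% of the genes. Tlr9 (10588479), the sensor of unmethylated CpG DNA, was read by 2 probe sets and did not pass, with an interval of -0.28 to 0.13 (limma adjusted p = 0.686).

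Tlr2 (10498992), a surface receptor of bacterial lipoproteins, had 8.53, 8.60 and 8.71 with the mimic, against 8.29, 8.28 and 8.39 with the control. All 3 mimic arrays were higher, and the log2 fold change was 0.29 ± 0.0704 (SE; adjusted p = 0.025 by limma). The call was lost without mimic replicate 2 or 3 or any 1 control replicate, with limma adjusted p up to 0.103. Tlr4 (10505517), the receptor of lipopolysaccharide, had 9.02, 8.93 and 9.05 with the mimic and 8.87, 8.97 and 9.03 with the control. Its ranges overlapped, with an interval of -0.11 to 0.20 (limma adjusted p = 0.762).

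Of the 2 Toll adaptors 1 fell. Myd88 (10597648), used by every Toll-like receptor of this set but Tlr3, had 8.50, 8.35 and 8.32 with the mimic, against 8.86, 8.68 and 8.75 with the control. The mimic arrays were all lower, with a log2 fold change of -0.38 ± 0.0747 (SE; adjusted p = 0.0108 by limma). Ticam1 (10452022), which encodes TRIF, the adaptor of Tlr3, had overlapping values of 8.03 to 8.13 with the mimic and 7.95 to 8.10 with the control, and its interval was -0.12 to 0.19 (limma adjusted p = 0.82). Whether the changes of the 2 adaptors differ from each other was not tested.

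Of the other sensors and binders of nucleic acid or antibody, grouped with the adaptor gene Tmem173, 4 of 5 fell. Eif2ak2 (10452980) encodes PKR, the kinase that halts translation when it binds double-stranded RNA. It had 9.86, 9.75 and 9.86 with the mimic, against 10.23, 10.25 and 10.21 with the control, a log2 fold change of -0.40 ± 0.0621 (SE; adjusted p = 0.00306 by limma). Tmem173 (10458314), named Sting1 in RefSeq, encodes the adaptor of cytosolic DNA sensing. Its values were 9.71, 9.72 and 9.85 with the mimic, against 10.09, 10.31 and 10.22 with the control, a log2 fold change of -0.44 ± 0.0765 (SE; adjusted p = 0.00538 by limma). Both genes were bright and lower on every mimic array.

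The falls of Zbp1 and Adar were the 2 with the largest adjusted p among the 14. Zbp1 (10490150), a sensor of Z-form nucleic acid, had 7.73, 7.65 and 7.31 with the mimic, against 7.89, 7.98 and 7.91 with the control. Mimic replicate 3 was well below the other mimic arrays, and the log2 fold change was -0.36 ± 0.101 (SE; adjusted p = 0.0456 by limma). The call held without mimic replicate 1 and was lost without any other single array, with a log2 fold change of -0.24 without mimic replicate 3 (limma adjusted p = 0.103), so that this array moved the value by over 1.5 times. Adar (10493565), which edits adenosine in double-stranded RNA and so keeps the cell's own RNA from the sensors, had 7.80, 7.65 and 7.73 with the mimic, against 7.91, 8.03 and 8.02 with the control. Its log2 fold change was -0.26 ± 0.0676 (SE; adjusted p = 0.0357 by limma), a call lost without replicate 2 or replicate 3 of either group (limma adjusted p up to 0.154). Trim21 (10566144), a cytosolic antibody receptor with ubiquitin ligase activity, had an interval of -0.21 to 0.09 (limma adjusted p = 0.673).

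None of the 3 genes between the sensors and the Irf factors was called (0 of 3). With 11.7% of all genes called, a count of 0 among so few genes is no result about this step. At an unadjusted limma p under 0.05 the count was also 0. Elsewhere, Irf2, Irf3, Ifnar1, Ifnar2, Ifngr1, Jak2 and Stat3 did not pass but had an unadjusted limma p under 0.05. The share of all genes at that unadjusted threshold was not counted, so these unadjusted counts are no result about the members. Tbk1 (10372853), the kinase that phosphorylates Irf3, had 9.85, 9.77 and 9.86 with the mimic and 9.74, 9.88 and 9.78 with the control. The values interleaved, and the interval was -0.12 to 0.18 (limma adjusted p = 0.849). Ikbke, the related inducible kinase, and Traf3, the ubiquitin ligase that links adaptors to both kinases, had log2 fold changes of -0.10 and 0.12 (limma adjusted p = 0.47 and 0.498).

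The Irf transcription factors split. Irf7 (10569102), the interferon-inducible factor that amplifies interferon production, had 7.06, 7.20 and 7.06 with the mimic, against 7.49, 7.46 and 7.67 with the control. Irf9 (10415319), the DNA-binding partner of Stat2, had 8.61, 8.51 and 8.54 with the mimic, against 8.78, 8.99 and 8.89 with the control. Every mimic array was below every control array in both, with log2 fold changes of -0.43 ± 0.0779 for Irf7 and -0.33 ± 0.0721 for Irf9 (SE; adjusted p = 0.00636 and 0.0156 by limma). The call of Irf9 was lost without replicate 2 or 3 of the mimic or replicate 3 of the control (limma adjusted p up to 0.0693).

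Irf1 (10376060), a factor induced by interferon gamma, moved the other way. Its values were 9.38, 9.25 and 9.23 with the mimic, against 8.78, 9.09 and 8.97 with the control, a log2 fold change of 0.34 ± 0.0873 (SE; adjusted p = 0.0319 by limma). Control replicate 1 was the lowest array, and without it the log2 fold change was 0.26 (limma adjusted p = 0.0766). The call was also lost without any 1 mimic array or control replicate 3, with median centring (limma adjusted p = 0.0502) and in the mean of its clusters (log2 fold change 0.17; 0.162). The further cluster of Irf1 (10385870), read by 1 probe set, had a log2 fold change of -0.0044, so the 2 readings of this gene disagree. Irf3 (10552812), the factor that starts interferon beta transcription, had 7.70, 7.69 and 7.47 with the mimic and 7.75, 7.87 and 7.78 with the control. It did not pass, with a log2 fold change of -0.18 ± 0.0778 (SE; adjusted p = 0.191 by limma). Irf2, a repressor of interferon genes, had a log2 fold change of 0.17 and Irf5, a factor downstream of Toll-like receptors, 0.04 (limma adjusted p = 0.104 and 0.84).

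Ifnb1 (10514285), the gene of interferon beta itself, was near the bottom of the scale in both groups. It had 4.45, 4.55 and 4.65 with the mimic and 4.65, 4.63 and 4.70 with the control, and was brighter than only 7.71% of the genes. The ranges overlapped, and the interval of its log2 fold change was -0.27 to 0.04 (limma adjusted p = 0.387). Whether these values lie above background could not be told, so they set no limit on the interferon made.

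The interferon receptor genes included the most stable rise of the set. Ifngr2 (10436865), the signalling chain of the interferon gamma receptor, had 11.29, 11.28 and 11.31 with the mimic, against 10.83, 10.80 and 10.86 with the control. The spread within each group was small beside the gap, and the log2 fold change was 0.46 ± 0.0584 (SE; adjusted p = 0.00104 by limma). Ifngr1 (10361897), the ligand-binding chain of the same receptor, had a log2 fold change of -0.14 ± 0.0606 and did not pass (SE; adjusted p = 0.188 by limma). Ifnar1 (10436849), a chain of the receptor of interferon alpha and beta, had 9.07, 8.97 and 9.05 with the mimic and 8.76, 8.91 and 8.87 with the control, and its partner Ifnar2 (10436830) had 10.79, 10.83 and 10.92 with the mimic and 11.05, 11.05 and 11.06 with the control. Neither passed, although in both the arrays of the groups did not overlap, with the mimic arrays above for Ifnar1 and below for Ifnar2. Their log2 fold changes were 0.18 ± 0.0669 and -0.20 ± 0.0621 (SE; adjusted p = 0.13 and 0.064 by limma). In the order of coding genes of RefSeq, Ifnar2, Il10rb, Ifnar1 and Ifngr2 are neighbours on chromosome 16. Il10rb, the shared chain of the interleukin-10 and interferon lambda receptors, had a log2 fold change of 0.11 (limma adjusted p = 0.403).

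The Janus kinases, which sit on these receptors, did not pass (0 of 3, beside 11.7% of all genes called). At an unadjusted limma p under 0.05 there was 1 of them, Jak2, which is no result about the group, as the share of all genes was not counted there. Jak1 (10514668), used by both interferon receptors, had 11.74, 11.79 and 11.76 with the mimic and 11.65, 11.75 and 11.71 with the control, with an interval of -0.08 to 0.20 (limma adjusted p = 0.638). Jak2, which serves the gamma receptor, and Tyk2, which serves the alpha and beta receptor, had log2 fold changes of -0.20 and -0.05 (limma adjusted p = 0.151 and 0.68).

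Stat2 (10367224), which carries the activation domain of the interferon-induced complex, had the largest fall of the 38 genes. It had 9.03, 8.91 and 8.97 with the mimic, against 9.55, 9.53 and 9.60 with the control. The highest mimic array was well below the lowest control array, and the log2 fold change was -0.59 ± 0.0631 (SE; adjusted p = 0.000428 by limma). On the linear scale its level fell by 33.7%. Stat3 (10391301), the main factor of interleukin-6 signalling, had 10.31, 10.20 and 10.17 with the mimic, against 10.38, 10.47 and 10.50 with the control. It missed the threshold with a log2 fold change of -0.22 ± 0.0672 (SE; adjusted p = 0.0615 by limma) and passed in 6 of the 9 alternatives that keep all arrays. The feedback inhibitor genes Socs1 and Socs3 did not pass (0 of 2, beside 11.7% of all genes called). Neither had an unadjusted limma p under 0.05, a threshold at which the share of all genes was not counted. Their log2 fold changes were 0.05 and -0.12 (limma adjusted p = 0.707 and 0.311).

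**Figure D3:**
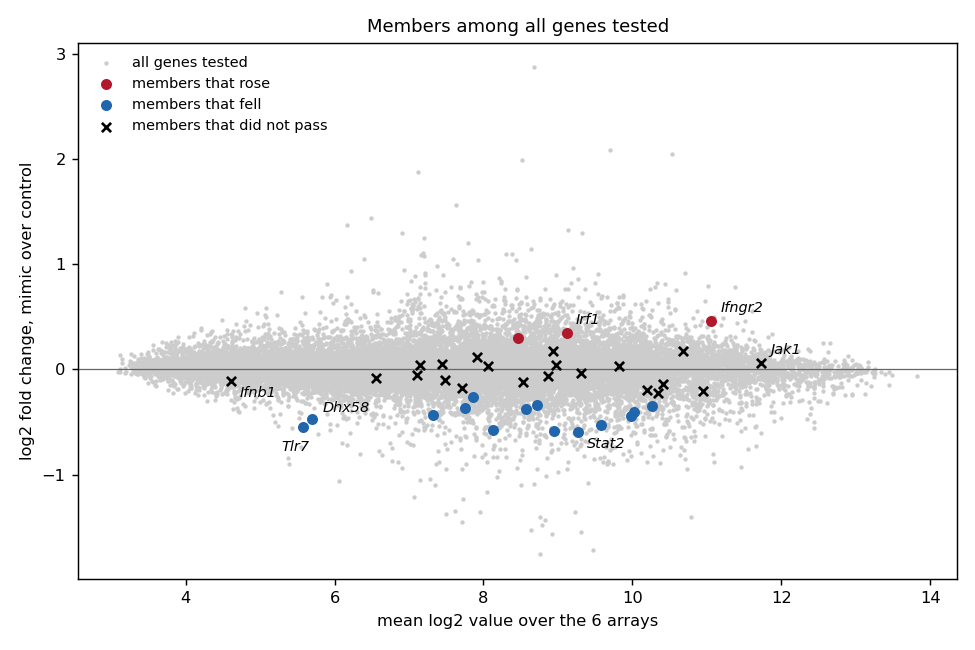
The horizontal axis is the mean log2 value over the 6 arrays and the vertical axis the log2 fold change of the mimic over the control. Grey points are the 21157 genes tested, red and blue points the members that rose and fell, and crosses the members that did not pass. The members' changes, between -0.59 and 0.46, are small beside the most changed genes of the arrays.

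Other genes of the pathway were counted on lists written by role. Of 26 measured further sensors and their regulators, 4 fell and 0 rose, with a median log2 fold change of -0.05. Nod1, a cytosolic sensor of bacterial peptidoglycan, had a log2 fold change of -0.62, Samhd1, which degrades deoxynucleotides, -0.49, Ddx60, an interferon-induced helicase, -0.69, and Tlr1, the surface partner of Tlr2, -0.31. The limma adjusted p of the first 3 lay between 0.000499 and 0.00782, and that of Tlr1 was 0.0301, a call lost without mimic replicate 1 or 2 or control replicate 2 or 3. Of 23 further adaptors and kinases 1 rose, Chuk, the kinase IKK-alpha (log2 fold change 0.43; limma adjusted p = 0.00608), and 1 fell, Ripk1, a kinase of death receptor signalling (-0.33; 0.0141), which was not called without control replicate 3. These shares, 15.4% and 8.7%, stand beside 11.7% of all genes.

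On the list of further interferons, receptors, factors and inhibitors, Ptpn11, the gene of the phosphatase SHP2, fell with a log2 fold change of -0.35 (limma adjusted p = 0.00609). Stat5a and Stat5b, the factors of prolactin and growth hormone signalling, rose with log2 fold changes of 0.42 and 0.25 (limma adjusted p = 0.00789 and 0.0338), and the call of Stat5b was lost without any array but control replicate 2. Stat5a is the coding neighbour of Stat3 on chromosome 11 in RefSeq, with its log2 fold change of 0.42 beside -0.22 for Stat3.

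Genes that interferon induces were counted in the same cells. Of 51 measured genes on this list, from which Ifih1 was left out as a member, 30 fell and 3 rose, 58.8% and 5.88%, beside 5.64% and 6.08% of all genes, and 18 did not pass. The median log2 fold change of the list was -0.34. The 5 with the smallest adjusted p among the fallen were Ifit1 (log2 fold change -1.76), Ifit3 (-1.40), Oasl2 (-0.88), Usp18 (-0.81) and Sp100 (-0.89). Ifit1 binds viral RNA, Usp18 restrains the interferon receptor, and Sp100 is a nuclear body protein. Those that rose were Psmb9, an immunoproteasome subunit (0.46), the chemokine gene Ccl5 (0.47) and the peptide transporter gene Tap1 (0.32), whose call was lost without mimic replicate 1 or 3 or control replicate 1 or 2. The log2 fold changes of these 5 fallen genes were larger in size than that of any member, of which Stat2 at -0.59 had the largest fall. The list was written with earlier results of these arrays known.

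**Figure D4:**
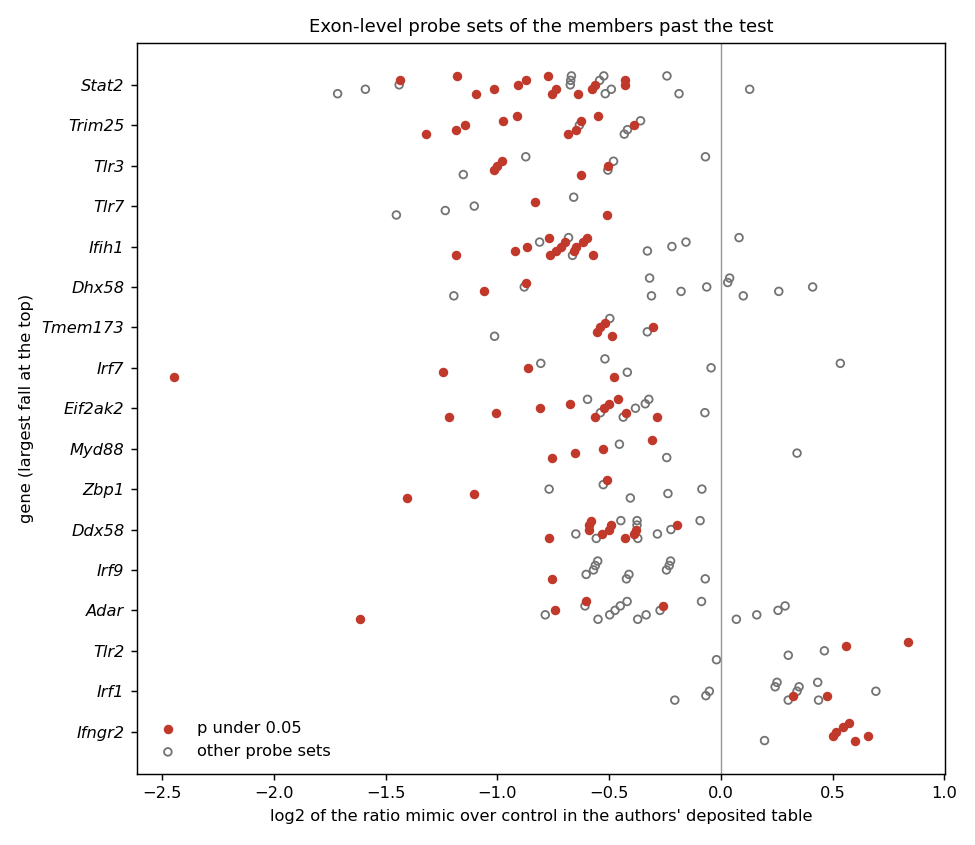
Each circle is an exon-level probe set in the authors' deposited table, placed by the log2 of the authors' ratio of mimic over control, with rows for the 17 members past the test. Filled red circles have a deposited p under 0.05. All 14 probe sets of Trim25 and all 20 of Ddx58 lie left of 0, and all 7 of Ifngr2 right of it.

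Along the genes, most exons moved with the whole transcript. In the authors' deposited table, 6.44% of all probe sets were lower and 5.51% higher with a p under 0.05. By the authors' deposited table, all 14 probe sets of Trim25 were lower and 10 had a p under 0.05, with ratios from 0.401 to 0.78. For Stat2, 26 of 27 probe sets of that authors' deposited table were lower, 14 of them with a p under 0.05. The counts in the authors' deposited table were 20 lower of 20 with 11 under 0.05 for Ddx58, and 19 of 20 with 13 under 0.05 for Ifih1. Ifngr2 moved the other way, with 7 of 7 probe sets higher and 6 under 0.05 in the authors' deposited table. Of the dimmest fallen members, Tlr7 had 6 of 6 lower probe sets, 2 with a p under 0.05, in the authors' deposited table. Dhx58 had 8 lower probe sets, 2 with a p under 0.05, and 5 higher ones in the authors' deposited table. Irf9 had 11 of 11 lower probe sets but 1 with a p under 0.05 in the authors' deposited table. For Irf1, 10 of 13 probe sets were higher, 2 of them under 0.05, in the authors' deposited table. The median ratio in the authors' deposited table had the same sign as the log2 fold change in all 17 called members and in 34 of the 38. These ratios come from the same RNA and are no separate evidence.

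The promoters of the members were searched for the elements that Irf and Stat factors bind, since the genes of these factors are themselves on the list. RefSeq windows of 300 bases (GRCm38.p6, 250 before to 50 after each start) were found for 33 of the 38 members and not for Dhx58, Tlr4, Tlr7, Zbp1 and Tmem173. All of these but Tlr4 were fallen members, so the shares below leave out part of the fallen group. The core of the interferon-stimulated response element (ISRE) was searched as GAAA, any 2 bases and GAAA, and the core of the gamma-activated site (GAS) as TTC, any 3 bases and GAA, on both strands, and a gene with several windows counted once. The ISRE core was found for 5 of 10 fallen members with a window (50%), 0 of 3 risen and 3 of 20 that did not pass (15%), against 3.99% of 27025 genes. The GAS core was found for 3 of 10, 1 of 3 and 4 of 20, against 9.55% of all genes. The 5 fallen members with the ISRE core were Ddx58, Ifih1, Myd88, Eif2ak2 and Stat2, and the 3 that did not pass were Trim21, Irf2 and Socs1. A match of letters is no proof of a bound site.

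Stretches with a match are printed for the 4 called members with the smallest adjusted p that have one, to show where the element sits. Each runs 5′ to 3′ on the gene's strand from 250 bases before to 30 after the start, and the matches are in capitals; they do not overlap each other. That of Ifih1 is only the 30 bases around its match, which starts 33 bases into the transcript. The Stat2 stretch is chr10:128270248-128270527 (plus strand), with its match starting 222 bases before the start. Eif2ak2, at chr17:78882543-78882822 (minus strand), holds the GAS core from 178 bases before and the ISRE core from base 19 of the transcript. Ddx58 is at chr4:40239796-40240075 (minus strand), with its match from base 3 of the transcript, and Ifih1 at chr2:62646206-62646235 (minus strand).
Stat2: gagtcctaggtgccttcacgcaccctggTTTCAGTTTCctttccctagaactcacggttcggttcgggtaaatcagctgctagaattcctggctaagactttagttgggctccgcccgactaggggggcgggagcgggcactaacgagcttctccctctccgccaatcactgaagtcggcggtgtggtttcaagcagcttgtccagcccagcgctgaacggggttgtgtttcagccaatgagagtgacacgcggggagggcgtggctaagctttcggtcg
Ifih1: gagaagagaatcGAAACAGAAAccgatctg
Eif2ak2: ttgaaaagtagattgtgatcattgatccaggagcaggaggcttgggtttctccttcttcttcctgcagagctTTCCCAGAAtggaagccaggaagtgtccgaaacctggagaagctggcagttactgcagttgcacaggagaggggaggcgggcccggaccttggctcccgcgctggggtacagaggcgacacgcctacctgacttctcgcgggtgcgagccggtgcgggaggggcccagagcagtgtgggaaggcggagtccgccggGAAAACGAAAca
Ddx58: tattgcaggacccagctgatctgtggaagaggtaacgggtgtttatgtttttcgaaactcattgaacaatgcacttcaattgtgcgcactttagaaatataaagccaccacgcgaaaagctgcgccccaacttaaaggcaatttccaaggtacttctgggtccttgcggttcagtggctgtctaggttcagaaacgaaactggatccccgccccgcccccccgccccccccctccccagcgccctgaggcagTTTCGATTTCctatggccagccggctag

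**Figure D5:**
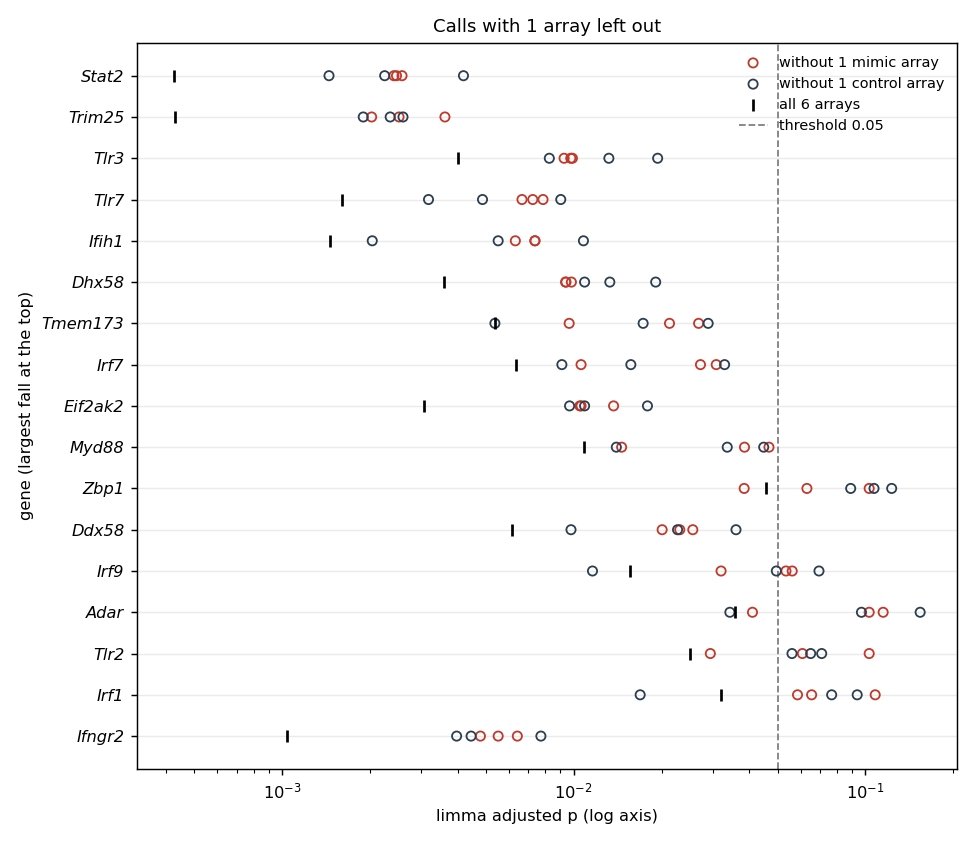
The horizontal log axis is the limma adjusted p and each row is a member past the test. Open circles are fits without 1 mimic array (red) or 1 control array (dark), the black tick is the fit with all 6 arrays and the dashed line is 0.05. All 6 circles stay left of the line for 12 of the 17 genes, and those of Zbp1, Irf9, Adar, Tlr2 and Irf1 lie on both sides.

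The 17 calls differed in how they stood without single arrays. In each of the 6 fits that leave out 1 array, 11 of the fallen members were called, namely Ddx58, Ifih1, Dhx58, Trim25, Tlr3, Tlr7, Myd88, Eif2ak2, Tmem173, Irf7 and Stat2, and 1 of the risen, Ifngr2. The other 5, Zbp1, Adar, Irf9, Tlr2 and Irf1, were lost in at least 1 such fit. With mimic replicate 2 or 3 or control replicate 1 or 3 left out, 1 member rose in place of 3. The fall of these 11 members was thus called with any 5 of the 6 arrays, while of the rises that of Ifngr2 alone was. The log2 fold changes of the other 5 kept their direction in each such fit. They ran from 0.25 to 0.34 for Tlr2 and from 0.26 to 0.42 for Irf1, so what was lost was the threshold.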

How the data were processed

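The authors deposited a series matrix with 1 value for each transcript cluster and array, in log2 units as read from its range of 2.73 to 13.91. The authors' deposited comparison table holds, for 241419 exon-level probe sets, a linear ratio of mimic over control, a signed fold change (a score made from the ratio) and an unadjusted p-value, per the file headers, which do not say which arrays entered it. The tools named are RMA, MAS5, Affymetrix Expression Console and Partek, per the submitters' processing notes, with no role or version; the build behind the array annotation was not given in the sources used here. Scanner files and detection calls were not used here, so background and scale cannot be checked further. The number of arrays limits the precision.

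Clusters (35556) were named through RefSeq (GRCm38.p6) by accession, symbol or synonym. A single symbol was found for 24149, several for 800 and none for 10607; 766 kept the file's older name. The brightest cluster stood for each of 1702 genes with several. All 6 arrays entered limma 3.58.1 (R 4.3.3; lmFit, eBayes, group as the only term, two-sided), with Benjamini-Hochberg adjustment over 21157 genes and a threshold of 0.05; the script was tested on simulated data. Array medians lay between 6.94 and 7.01, and arrays correlated at r = 0.993 to 0.996 across genes within a group and 0.989 to 0.993 between groups. Alternatives were filters on dim genes, quantile normalization, median centring, a replicate block, trended robust moderation, array weights, other handling of clusters and leaving out each array.

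Members past the threshold and 15 chosen genes are given with 6 values and the test, other members with values or ranges. From each further list up to 5 genes a direction with the smallest adjusted p are named. The members and lists were chosen with earlier results of these data known. The count over the list of further interferons, receptors, factors and inhibitors is not reported here.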

Additional observations from a re-analysis of the deposited data

How the results depend on the processing

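With 3 arrays a group, small changes cannot be resolved, and dim genes carry no background call. No call of a member changed direction, and 27 of 38 members kept their call in every alternative that tested them, 15 of them as not passed. Dhx58, Tlr7 and Ifnb1 were removed by each filter on dim genes, and Tlr9, Irf5 and Tyk2 by the filter at the median. Those filters therefore say nothing about these genes. Counts are given as risen and fallen, with 1286 and 1194 genes, 3 and 14 members and 3 and 30 interferon-induced genes at the start. Array weights called 2833 and 2876 genes and 5 and 18 members, adding Ifnar1 and Irf2 as risen (limma adjusted p = 0.0354 and 0.0493) and Irf3, Socs3, Stat3 and Ifnar2 as fallen (0.028, 0.0337, 0.00236 and 0.0159). Testing all clusters left 1 and 11 members. Leaving out 1 array gave 675 to 1111 risen and 605 to 1121 fallen genes, 1 to 2 and 11 to 14 members, and 2 to 3 and 23 to 30 interferon-induced genes. The replicate numbers did not pair the arrays: deviations of same-numbered arrays correlated across genes at -0.05, -0.28 and 0.04, and 0 of 6 arrays correlated best with its own number. With the replicate block 884 and 845 genes and 2 and 12 members were called, without Zbp1, Adar and Irf1 (limma adjusted p = 0.0523, 0.0927 and 0.0687).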
